A study of Mus musculus with 12 samples.

Results

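The cytosolic sulfotransferases described here are 8 mouse genes, Sult1e1, Sult1d1, Sult1b1, Sult1a1, Sult1c2, Sult2a2, Sult3a1 and Sult5a1, read by 10 of the 41174 probes on the array and representing 8 of its 27661 named genes or transcripts. Probes were taken by the gene name in the scanner files, with older names brought to current symbols by transcript accession, and all 10 probes passed the filter on dim signal. The RNA came from livers of adrenalectomized C57BL/6 mice aged 11 weeks. The groups were 3 females and 3 males given dexamethasone, a synthetic glucocorticoid, at 1 mg/kg into the peritoneum, and 3 females and 3 males given phosphate-buffered saline as vehicle. All females were in diestrous 1, all animals had lost the adrenal glands, the main source of their own glucocorticoid, and livers were taken 6 h after the injection. Each animal had 1 single-colour Agilent array, and 4 arrays shared each of 3 slides. Male dexamethasone 1 and 3 were on slide 3 and male dexamethasone 2 on slide 1. Female dexamethasone 1 and 3 were on slide 2 and female dexamethasone 2 on slide 1. Only slide 1 thus held both sexes after dexamethasone.

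Cytosolic sulfotransferases move a sulfonate group from the donor PAPS onto small molecules such as estrogens, hydroxysteroids, catecholamines, thyroid hormones, bile acids, phenols and drugs. The sulfated product is more soluble in water, usually inactive at its receptor, and readily excreted, and sulfatases can reverse the step. In rodent liver several of these genes are known for a strong difference between the sexes that follows the pattern of growth hormone release.

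The livers gave an upper-quartile signal of 578 to 1251 intensity units per array, with 65.1 to 71.8% of probes well above background. Arrays of the same group correlated at 0.984 to 0.994, and no spot of a sulfotransferase probe was saturated or marked as an outlier. The 6 hepatocyte markers on the array (Alb, Ttr, Apoa1, Apob, Fgb and Cps1) were well above background on all 12 arrays. Levels below are log2 signal relative to the array's 75th percentile, so 0 is the upper quartile of that array, and effects are log2 differences ± standard error from limma with p-values adjusted by Benjamini and Hochberg over 19336 genes. RNA from whole liver cannot tell fewer cells of a type from less RNA per cell.

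The results turn on a few probes of 60 bases, shown 5′ to 3′ with positions on mm7, the build of the array design. The first 2 read the genes that rose with dexamethasone in both sexes, the third the gene that fell in males, and the last 2 the genes with the largest differences between females and males.
Sult1e1, chr5:87512926-87512985, minus strand: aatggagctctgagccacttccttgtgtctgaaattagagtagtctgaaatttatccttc
Sult1d1, chr5:87492397-87492456, minus strand: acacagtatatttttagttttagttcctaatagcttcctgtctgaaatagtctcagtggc
Sult1c2, chr17:51987327-51987386, minus strand: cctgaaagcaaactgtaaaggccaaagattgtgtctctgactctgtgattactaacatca
Sult2a2, chr7:12414651-12414710, minus strand: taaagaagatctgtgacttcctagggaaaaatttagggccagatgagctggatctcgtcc
Sult3a1, chr10:33660082-33660141, plus strand: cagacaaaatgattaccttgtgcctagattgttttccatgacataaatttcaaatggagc

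The first question was what dexamethasone did to these genes in each sex. In females 2 of the 8 genes rose, Sult1e1 and Sult1d1, 0 fell and 6 did not pass, where 6.79% of all genes tested were called higher and 6.88% lower. In males 3 rose (Sult1e1, Sult1d1 and Sult3a1), 1 fell (Sult1c2) and 4 did not pass, where 10.4% of all genes were called higher and 12.1% lower. The median effect over the 8 genes was 0.48 in females and 0.82 in males, beside 0.02 and 0.01 over all genes tested. The male median includes fitted values of Sult2a2 and Sult3a1, which were not above background in 1 male group each. The 7 other Sult genes tested had no call in either sex by limma. Sult2a7 in males (−1.64, adjusted p = 0.0623) and Sult3a2 in females (3.20, adjusted p = 0.0894) came nearest, with unadjusted p-values of 0.0154 and 0.0174. Sult3a2 passed the filter on dim signal only through females after dexamethasone. It was well above background on 1 of 3 female vehicle arrays, and its female groups overlapped. Its effect of 3.20 is therefore no exact size, and its p-values give no separate support for a rise.

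**Figure D1:**
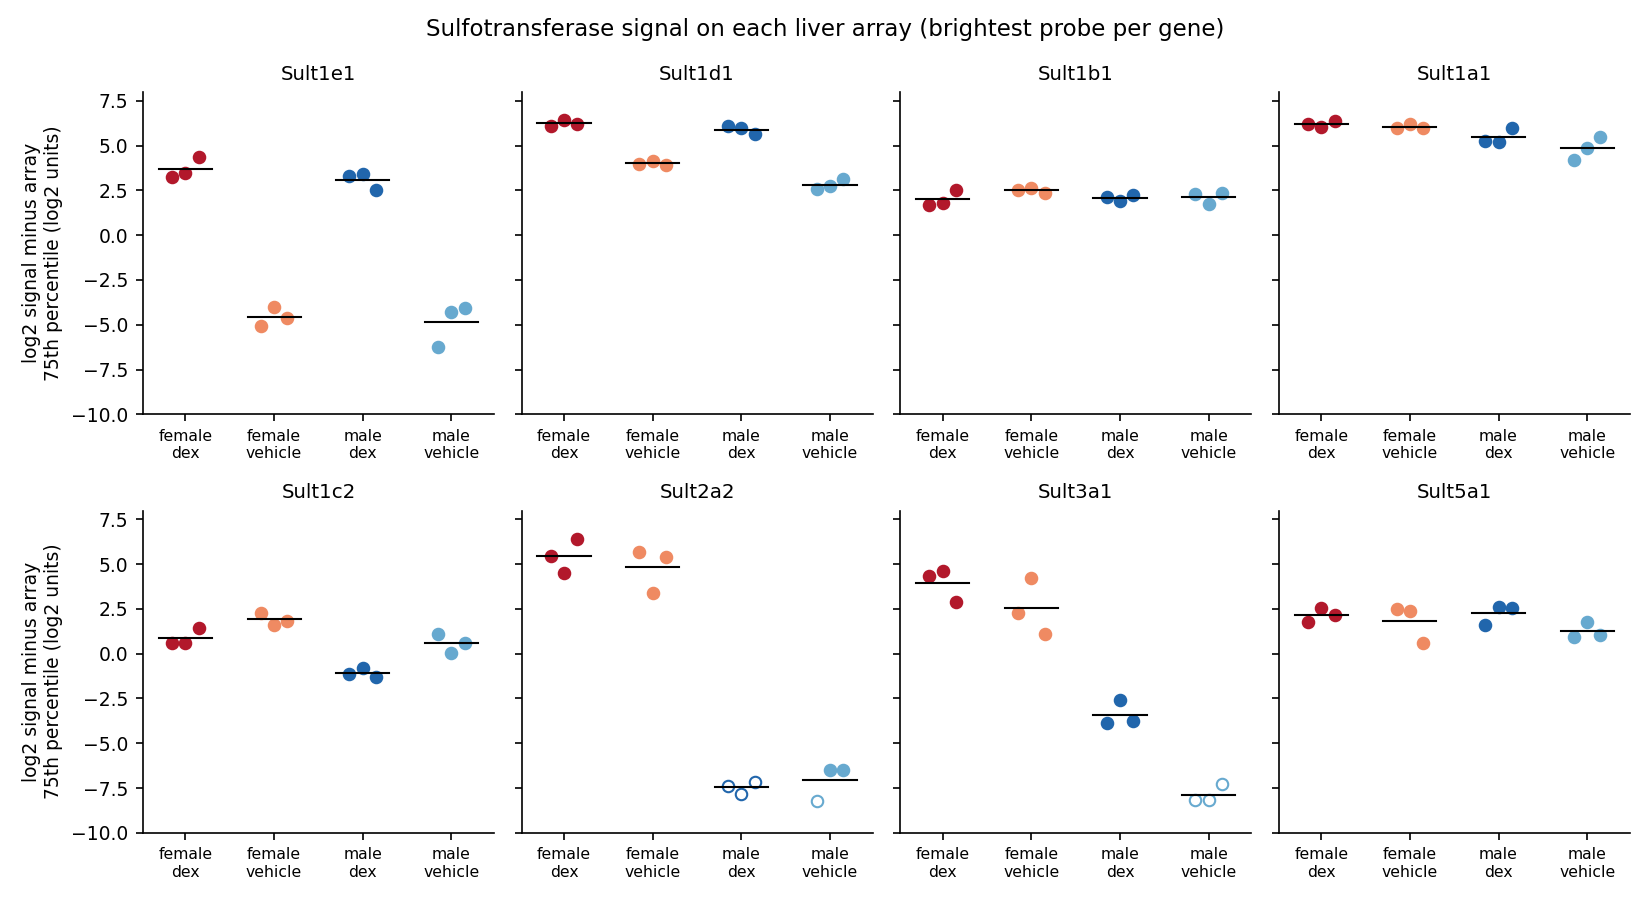
Signal of the brightest probe of each sulfotransferase gene on the 12 liver arrays, as log2 signal minus the array's 75th percentile (vertical axis, log2 units), with 3 animals per group. Filled points are well above background, open points are not, and bars are group means. Sult1e1 lies between 2.53 and 4.36 on dexamethasone arrays and between −6.22 and −4.01 on vehicle arrays, and Sult2a2 and Sult3a1 are far higher on female than on male arrays.

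Sult1e1 encodes estrogen sulfotransferase, which inactivates estradiol and estrone. In females its level was 3.27, 3.49 and 4.36 after dexamethasone, against −5.05, −4.01 and −4.64 after vehicle. In males the level was 3.31, 3.44 and 2.53 after dexamethasone, against −6.22, −4.31 and −4.05 after vehicle. The groups did not overlap in either sex, and the probe was well above background on all 12 arrays. On the intensity scale the mean was 12213 ± 5393 after dexamethasone and 47.9 ± 26.9 after vehicle in females, and 5991 ± 1986 after dexamethasone and 35.4 ± 21.9 after vehicle in males (SD, n = 3 each).

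Sult1e1 was above the upper quartile of every dexamethasone array and far below it on every vehicle array. The effect was 8.27 ± 0.54 in females (adjusted p = 5.04e-05 by limma) and 7.96 ± 0.54 in males (adjusted p = 3.55e-05), or 309-fold and 248-fold higher. By size this was place 2 of 19336 genes in both sexes. The effect in females minus that in males was 0.32, with a 95% interval of −1.37 to 2.00 (adjusted p = 1.00), so a difference between the sexes was not detected and one within that interval is not excluded. With normexp background correction, which raises dim signals, the effects were 6.73 and 6.00 and both stayed past the threshold. The exact permutation test of 3 arrays against 3 gave p = 0.10 in each sex, the smallest value that design allows.

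Fat and testis are also known to express Sult1e1, and their markers were read on the same arrays. Of 7 adipocyte markers 4 passed the filter on dim signal, and 2 of these rose in each sex. That is 50%, beside 6.79% of all genes in females and 10.4% in males. The mean level of all 7 markers, without the filter, ranged from −4.54 to −3.54 in females after dexamethasone, against −5.04 to −4.31 after vehicle. In males it ranged from −3.23 to −2.43 after dexamethasone, against −3.11 to −2.80 after vehicle. Fabp4 and Cidec stood above background on all 12 arrays, Cfd on 11 and Plin1 on 6. The adiponectin gene Adipoq and Retn did so on 4 each, and the leptin gene Lep on 0. Between the sexes 2 of the 4 adipocyte markers tested were lower in females than in males under each treatment. Of all genes, 2.53% were called lower in females after dexamethasone and 1.31% after vehicle. Of 5 testis markers 0 rose in either sex and 1 (20%) fell in each, beside 6.88% of all genes in females and 12.1% in males. The part of these markers in the Sult1e1 result was not tested.

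Sult1d1 encodes a sulfotransferase that in mice acts on dopamine and other catechols. In females its level was 6.10, 6.43 and 6.20 after dexamethasone, against 3.99, 4.14 and 3.90 after vehicle. In males it was 6.08, 5.99 and 5.63 after dexamethasone, against 2.56, 2.73 and 3.14 after vehicle. Every dexamethasone array was higher than every vehicle array. The effect was 2.23 ± 0.18 in females (adjusted p = 0.000138) and 3.09 ± 0.18 in males (adjusted p = 1.39e-05), or 4.71-fold and 8.51-fold higher. The effect in females minus that in males was −0.85 ± 0.25, which had an unadjusted p of 0.00667 but did not pass over all genes (adjusted p = 0.704).

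Sult1b1, which encodes a thyroid hormone sulfotransferase, is read by 2 probes. On the brighter one the level in females was 1.66, 1.78 and 2.55 after dexamethasone, against 2.51, 2.62 and 2.38 after vehicle. Male levels were 2.14, 1.91 and 2.25 after dexamethasone, against 2.28, 1.76 and 2.37 after vehicle. The groups overlapped in both sexes. The effect was −0.51 ± 0.24 in females (adjusted p = 0.194) and −0.04 ± 0.24 in males (adjusted p = 0.934), and on the dimmer probe −0.44 and −0.23. The female effect passed with array weights (−0.72, adjusted p = 0.0295) and without female dexamethasone 3 (−0.78, adjusted p = 0.0302), the animal at 2.55.

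Sult1b1, Sult1d1 and Sult1e1 are neighbours. Their probes lie on the minus strand of chromosome 5, 40.7 kb apart from Sult1b1 to Sult1d1 and 20.5 kb from Sult1d1 to Sult1e1, with no other protein-coding gene listed between them in the RefSeq gene table. The genes on the Sult1b1 side are glucuronosyltransferase genes, of which Ugt2a1 (0.08 in females, −0.11 in males) and Ugt2b38 (−0.05 and −0.74) were measured and did not pass. On the Sult1e1 side lie the casein genes Csn1s1, Csn2 and Csn1s2a, which did not pass the filter on dim signal. Among these adjacent genes the 2 that rose, Sult1d1 and Sult1e1, stood side by side.

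The promoters of these neighbours are shown because one gene did not pass the test and its neighbours rose. Each window is RefSeq sequence of GRCm38.p6, from 250 bases before to 50 bases after the gene's start, and is read on the gene's own strand. Capitals mark matches to any of 7 short motifs searched on both strands.
Sult1e1, chr5:87591562-87591861: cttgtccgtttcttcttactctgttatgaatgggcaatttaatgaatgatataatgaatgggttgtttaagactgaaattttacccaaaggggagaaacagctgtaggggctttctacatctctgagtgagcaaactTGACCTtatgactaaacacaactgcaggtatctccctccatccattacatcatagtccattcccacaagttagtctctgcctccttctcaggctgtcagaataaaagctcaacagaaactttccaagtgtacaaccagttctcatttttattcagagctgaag
Sult1d1, chr5:87568957-87569256: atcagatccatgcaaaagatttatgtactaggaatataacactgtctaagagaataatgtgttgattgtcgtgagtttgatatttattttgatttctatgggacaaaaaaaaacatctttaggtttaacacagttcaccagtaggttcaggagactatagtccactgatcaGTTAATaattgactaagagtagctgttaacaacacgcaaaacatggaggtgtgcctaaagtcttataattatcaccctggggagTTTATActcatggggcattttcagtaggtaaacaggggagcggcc
Sult1b1, chr5:87538146-87538445: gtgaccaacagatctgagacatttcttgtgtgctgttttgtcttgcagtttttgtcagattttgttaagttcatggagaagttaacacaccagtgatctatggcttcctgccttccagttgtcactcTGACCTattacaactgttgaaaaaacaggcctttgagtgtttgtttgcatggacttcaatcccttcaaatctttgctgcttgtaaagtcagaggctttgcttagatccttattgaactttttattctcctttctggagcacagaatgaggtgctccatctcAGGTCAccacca

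The Sult1e1 window held 1 nuclear receptor motif AGGTCA, read on the opposite strand and starting at position −113 from the gene's start. The Sult1d1 window held 1 HNF1 motif GTTAAT, starting at position −79 from the start. It also held the letters TATAAA on the opposite strand, after the gene's start, and the Sult1b1 window shown held 2 AGGTCA matches. AGGTCA occurred in 16.3% of all 32851 windows, GTTAAT in 7.10% and TATAAA in 13.6%. The core of the glucocorticoid response element, ACANNNTGT, was found in 0 of the 8 windows of the 7 genes that had one, and in 6.85% of all windows. The shorter glucocorticoid motif TGTTCT was found in Sult1a1 (2 matches), Sult1c2 and the other Sult1b1 window (1 each), and in 19.0% of all windows. The STAT motif TTCNNNGAA was found once, in Sult3a1, against 8.30% of all windows, and the C/EBP motif TTGCNNCAA in none of these genes, against 2.08%. Absence of a match says only that these letters are not in this window.

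Sult1a1 encodes the main phenol sulfotransferase of liver, and no dexamethasone effect passed. In females its level was 6.19, 6.04 and 6.39 after dexamethasone, against 5.99, 6.20 and 6.01 after vehicle. Male levels were 5.24, 5.22 and 6.01 after dexamethasone, against 4.20, 4.88 and 5.47 after vehicle. The effect was 0.14 in females (95% interval −0.53 to 0.80, adjusted p = 0.823) and 0.64 in males (−0.02 to 1.30, adjusted p = 0.155). The male effect passed without male vehicle 3, the highest of its group (0.95, adjusted p = 0.0427).

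Sult1c2 belongs to a subfamily that acts on phenolic compounds, and it was the gene that fell. In males its level was −1.13, −0.81 and −1.31 after dexamethasone, against 1.09, 0.03 and 0.60 after vehicle. The effect there was −1.65 ± 0.31 (adjusted p = 0.00438), or 3.15-fold lower, and the groups did not overlap. In females its level was 0.62, 0.59 and 1.46 after dexamethasone, against 2.30, 1.63 and 1.83 after vehicle. Those groups did not overlap either, but the effect of −1.03 ± 0.31 narrowly missed the threshold (adjusted p = 0.0521). It passed with 5 of 12 other settings, among them slide as a block (−1.23, adjusted p = 0.0380) and array weights (−1.33, adjusted p = 0.00739). It also passed without female dexamethasone 3, male vehicle 1 or male vehicle 2 (lowest adjusted p = 0.0231). The effect in females minus that in males was 0.62 ± 0.44 (adjusted p = 1.00).

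Sult3a1 encodes a sulfotransferase of amines. In males its level was −3.86, −2.58 and −3.75 after dexamethasone, against −8.19, −8.15 and −7.28 after vehicle, where it was not well above background on any of the 3 arrays. It was therefore at least 9.90-fold higher after dexamethasone in males, measured from the dimmest signals that were well above background, and the fitted effect of 4.47 ± 0.72 (adjusted p = 0.00209) is no exact fold. In females its level was 4.31, 4.64 and 2.91 after dexamethasone, against 2.29, 4.24 and 1.11 after vehicle. The female groups overlapped, and the effect of 1.40 ± 0.72 did not pass (adjusted p = 0.237).

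The male rise of Sult3a1 was lost with normexp background correction (1.81, adjusted p = 0.239). The female effect passed without female vehicle 2, the highest vehicle array (2.25, adjusted p = 0.0391), and with array weights (2.20, adjusted p = 0.0184). The effect in females minus that in males was −3.07 ± 1.02 (unadjusted p = 0.0125, adjusted p = 0.781) and rests on male vehicle arrays below background, so a call in males alone does not show a difference between the sexes. Over all genes that difference was called for 1 of 19336 (0.00517%), and for 0 of the 8 sulfotransferases. The hepatocyte markers also rose, 4 of 6 in males and 2 of 6 in females, and their mean level was 7.56 to 7.70 after dexamethasone and 7.18 to 7.23 after vehicle in males. Some markers of other liver cells fell, B cell markers 3 of 5 in males and 2 of 5 in females (median effects −1.62 and −1.48). In males 3 of 7 stellate cell markers and 2 of 7 T and NK cell markers also fell. Male cholangiocyte markers had 1 of 5 higher, and Kupffer cell and macrophage markers 1 higher and 1 lower of 8. In females 1 of 8 Kupffer cell and macrophage markers and 1 of 7 T and NK cell markers rose. Endothelial markers had 1 higher and 2 lower of 7 in males and 1 each way in females. Of all genes tested, 6.79% were called higher and 6.88% lower in females, and 10.4% and 12.1% in males. The mean level of the B cell markers was −3.996 to −3.35 after dexamethasone and −2.32 to −1.82 after vehicle in males, and −3.55 to −2.79 after dexamethasone and −2.64 to −1.29 after vehicle in females. The part of these markers in the sulfotransferase results was not tested.

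Sult2a2, for hydroxysteroids and bile acids, and Sult5a1, whose substrates are little known, had no dexamethasone call. On its brighter probe Sult2a2 in females was at 5.45, 4.51 and 6.42 after dexamethasone, against 5.71, 3.40 and 5.41 after vehicle (effect 0.62, 95% interval −0.87 to 2.11, adjusted p = 0.612). In males it was not well above background on any dexamethasone array and was on 2 of 3 vehicle arrays, so the fitted male effect (−0.40) has no settled size or direction. Sult5a1 in females was at 1.79, 2.56 and 2.15 after dexamethasone, against 2.50, 2.36 and 0.62 after vehicle (effect 0.34, adjusted p = 0.710). In males it was at 1.58, 2.61 and 2.58 after dexamethasone, against 0.96, 1.75 and 1.05 after vehicle (effect 1.01, 95% interval −0.05 to 2.07, adjusted p = 0.162). In both genes the groups overlapped in each sex.

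**Figure D2:**
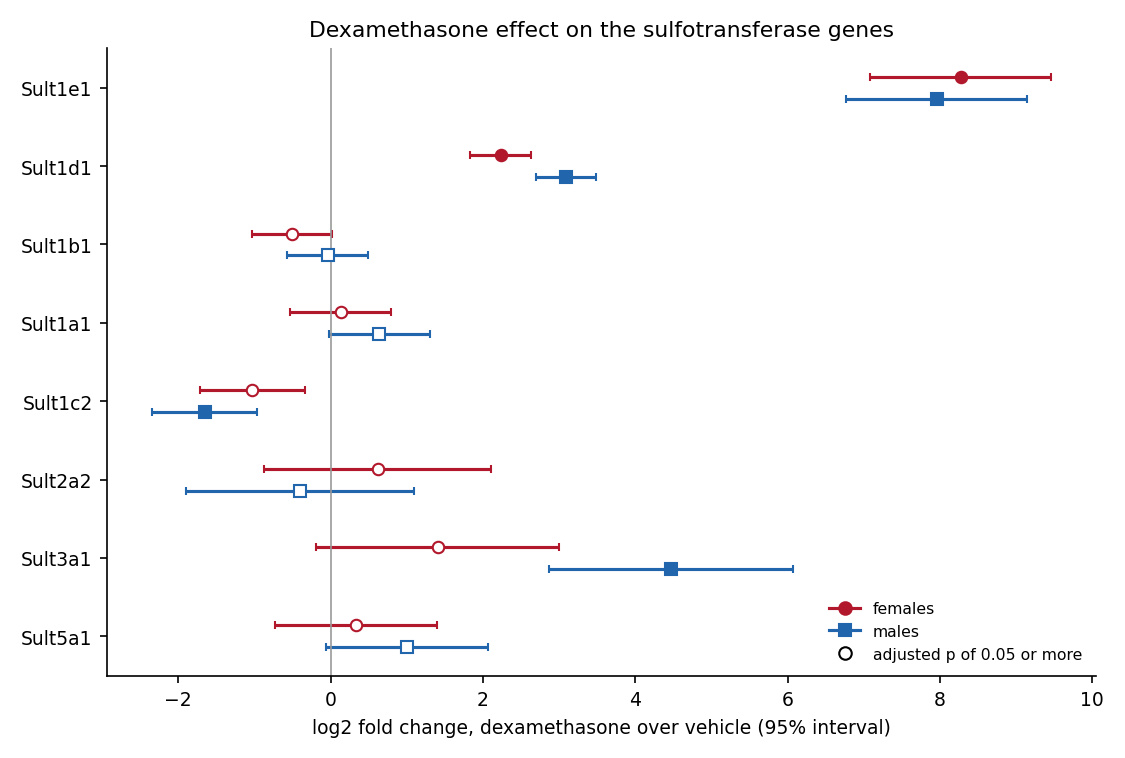
Effect of dexamethasone on each sulfotransferase gene as the log2 fold change over vehicle (horizontal axis) in females (circles) and males (squares), with 95% intervals from limma. Filled symbols passed an adjusted p of 0.05. Sult1e1 stands at 8.27 and 7.96 and Sult1d1 at 2.23 and 3.09, and Sult1c2 is the gene called lower, in males.

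The second question was how far the sexes differed under each treatment. Only slide 1 held both sexes after dexamethasone, so for animals on slides 2 and 3 sex and slide cannot be told apart in that comparison. After dexamethasone 3 of the 8 genes were higher in females than in males (Sult2a2, Sult3a1 and Sult1c2) and 0 were lower, where 3.27% of all genes were called higher and 2.53% lower. After vehicle 3 were higher in females (Sult2a2, Sult3a1 and Sult1d1) and 0 lower, where 0.652% of all genes were called higher and 1.31% lower. The median difference over the 8 genes was 0.66 after dexamethasone and 1.21 after vehicle, beside −0.05 over all genes under each treatment.

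Sult2a2 was far higher in females under both treatments. Both its probes passed the filter on dim signal only through the female groups, so the p-values give no separate support for this difference. After dexamethasone the female levels given above stood against −7.39, −7.83 and −7.19 in males, none well above background, which is at least 3406-fold higher in females (adjusted p = 2.96e-06). After vehicle they stood against −8.21, −6.48 and −6.51 in males, 2 of them well above background, a difference of 11.9 ± 0.67 (adjusted p = 7.78e-06). The second probe was not above background on any male array, and was at least 28.1-fold higher in females after dexamethasone (adjusted p = 0.00855) and at least 39.3-fold higher after vehicle (adjusted p = 0.00872), over all probes tested. With normexp background correction the differences on the brighter probe were 7.81 and 8.47 and both stayed past the threshold.

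The Sult2a genes are close copies, and signal can cross between their probes. The second Sult2a2 probe and one Sult2a4 probe are shown because they align over 38 identical bases with 4 mismatches and 1 gap base, and capitals mark the bases they share.
Sult2a2: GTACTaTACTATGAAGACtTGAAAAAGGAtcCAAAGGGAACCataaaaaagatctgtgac
Sult2a4: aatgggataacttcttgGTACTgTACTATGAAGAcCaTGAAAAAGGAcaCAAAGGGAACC

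Levels of these 2 probes are therefore uncertain as measures of single genes. The brighter Sult2a2 probe shared no run longer than 9 bases with a probe of another Sult gene, and 12 bases with the second Sult2a2 probe. Probes were compared only with each other, not with whole transcripts of the Sult2a genes. This therefore does not show that the brighter probe reads Sult2a2 alone. Promoter sequence was used for 7 of the 8 genes and not for Sult2a2.

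Sult3a1 was also far higher in females. After dexamethasone the female levels of 2.91 to 4.64 stood against −3.86 to −2.58 in males, a difference of 7.35 ± 0.72 (adjusted p = 0.000385). After vehicle the male arrays were below background, and the level was at least 611-fold higher in females (adjusted p = 4.55e-05). The groups did not overlap under either treatment. With normexp the differences were 5.77 and 6.36 and both passed. By mean level the order was females after dexamethasone, females after vehicle, males after dexamethasone and males after vehicle. In that order the female groups overlapped and did not pass, and females after vehicle (lowest 1.11) and males after dexamethasone (highest −2.58) did not overlap but were not tested against each other.

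Sult1c2 was 1.97 ± 0.31 higher in females after dexamethasone (adjusted p = 0.00646) and 1.35 ± 0.31 higher after vehicle, which did not pass (adjusted p = 0.0582). The call after dexamethasone was lost with slide as a block (1.57, adjusted p = 0.0712) and with normexp (1.55, adjusted p = 0.0537), and on slide 1, which held all 4 groups, the difference was 1.40. The difference after vehicle passed with 4 of 12 other settings. Its lowest group was males after dexamethasone, and its highest was females after vehicle.

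Sult1d1 was 0.34 ± 0.18 higher in females after dexamethasone, which did not pass (adjusted p = 0.294, 95% interval −0.06 to 0.74). After vehicle it was 1.20 ± 0.18 higher in females (adjusted p = 0.00688), and within slides 1, 2 and 3 the difference was 1.57, 0.84 and 1.17. That call was lost with normexp (1.19, adjusted p = 0.0956). Sult1e1 had no sex call: females were 0.61 higher after dexamethasone (95% interval −0.58 to 1.80) and 0.30 higher after vehicle (−0.90 to 1.49). After vehicle the slides differed in sign for Sult1e1, with 2.21 on slide 1, −0.996 on slide 2 and −0.33 on slide 3.

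Sult1a1 was 0.71 ± 0.30 higher in females after dexamethasone (adjusted p = 0.198) and 1.22 ± 0.30 higher after vehicle (adjusted p = 0.0758), and its groups did not overlap under either treatment. With an intensity trend in the moderation the vehicle difference passed (adjusted p = 0.0425). Sult1b1 (−0.10 and 0.37) and Sult5a1 (−0.10 and 0.58) had smaller differences after dexamethasone and after vehicle, and none passed.

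**Figure D3:**
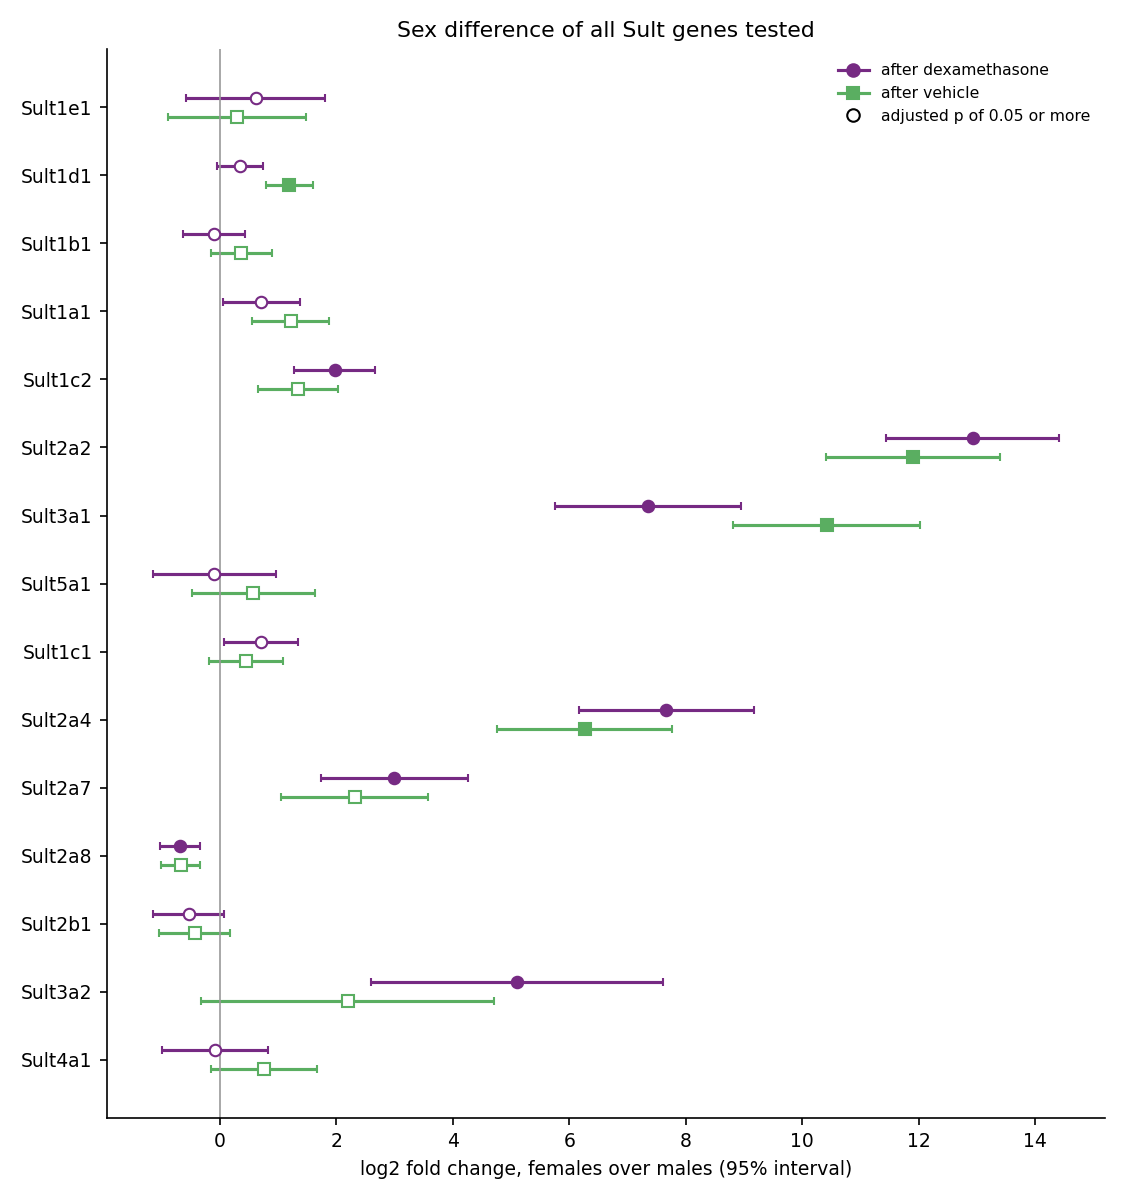
Difference between females and males as the log2 fold change (horizontal axis) after dexamethasone (circles) and after vehicle (squares) for the 15 Sult genes tested, with 95% intervals from limma, the 8 genes of the main set first. Filled symbols passed an adjusted p of 0.05. Sult2a2 stands at 12.9 and 11.9 and Sult3a1 at 7.35 and 10.4. Male arrays below background leave the Sult2a2 values and the Sult3a1 value after vehicle without an exact size.

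Of the 7 other Sult genes tested, 3 were higher and 1 lower in females after dexamethasone, and 1 was higher after vehicle, and they are named here after their values were seen. The probes of Sult2a4, Sult2a7 and Sult3a2 carry these names only through an older gene ID or model transcript in the scanner files, so their identity is less sure than that of the listed genes. Sult2a4 was at least 74.7-fold higher in females after dexamethasone (adjusted p = 0.000209), and 6.27 ± 0.68 higher after vehicle (adjusted p = 0.000794), with 1 of 3 male vehicle arrays above background. Sult3a2 was at least 7.03-fold higher (adjusted p = 0.0288) and Sult2a7 2.99 ± 0.57 higher (adjusted p = 0.0147) after dexamethasone. Sult2a8, for bile acids in mouse liver, went the other way at −0.69 ± 0.15 (adjusted p = 0.0284). The Sult2a family was thus not uniform in direction. Sult2a4 passed the filter on dim signal only through the female groups, and Sult3a2 only through females after dexamethasone. The p-values of Sult2a4 and Sult3a2 therefore give no separate support for their differences between the sexes.

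Female dexamethasone 2 and female vehicle 2 had the lowest levels of their groups on both Sult2a2 probes (4.51 and 3.40 on the brighter, −3.38 and −4.15 on the other). The same 2 arrays, both on slide 1, had the highest Sult3a1 levels of their groups (4.64 and 4.24), although 4.64 lay close to the 4.31 of female dexamethasone 1 on slide 2. Within slide 1 the dexamethasone effect in females was 1.11 for Sult2a2 and 0.40 for Sult3a1, and within slide 2 it was 0.22 and 1.32. The part of the slide in these levels was not tested beyond these values and the fit with slide as a block.

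The enzymes need PAPS, which is made from sulfate by the synthases Papss1 and Papss2, and neither gene passed. Papss1 was at −0.45 ± 0.25 in females (adjusted p = 0.265) and −0.43 ± 0.25 in males (adjusted p = 0.249). Papss2 was at −0.54 ± 0.30 in females (adjusted p = 0.278) and −0.26 ± 0.30 in males (adjusted p = 0.598). The counts of the lists that follow stand beside the same shares of all genes as above, 6.79% higher and 6.88% lower in females and 10.4% higher and 12.1% lower in males. Of 7 genes for transport of sulfate and PAPS, 0 rose, 1 fell and 6 did not pass in females, and 1 rose, 1 fell and 5 did not pass in males, where 1 gene is 14.3% of the list. The one that fell in both was the sulfate transporter gene Slc13a4, at −1.82 ± 0.48 in females (adjusted p = 0.0328) and −1.91 ± 0.48 in males (adjusted p = 0.0178).

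Sulfate itself comes largely from cysteine. Of 11 listed genes of sulfur amino acid metabolism 2 rose in both sexes, 18.2% beside 6.79% of all genes in females and 10.4% in males. Cdo1, which encodes cysteine dioxygenase, the entry step from cysteine, was at 7.71, 7.72 and 7.89 in females after dexamethasone, against 6.89, 6.75 and 6.53 after vehicle. Male levels were 7.63, 7.80 and 7.73 after dexamethasone, against 6.56, 6.44 and 6.63 after vehicle. Its effect was 1.05 ± 0.13 in females (adjusted p = 0.000895) and 1.18 ± 0.13 in males (adjusted p = 0.000314). Got1, a transaminase that also serves gluconeogenesis, rose by 1.84 ± 0.39 in females (adjusted p = 0.0120) and 1.93 ± 0.39 in males (adjusted p = 0.00597). In females 0 of the 11 fell and in males 1 did, and the list's median of 0.12 in females and 0.14 in males stood beside 0.02 and 0.01 over all genes. Of the 2 genes that remove PAP, the product left after transfer, Bpnt2 rose in males (0.47 ± 0.15, adjusted p = 0.0482) and was at 0.50 ± 0.15 in females, which did not pass (adjusted p = 0.0546).

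**Figure D4:**
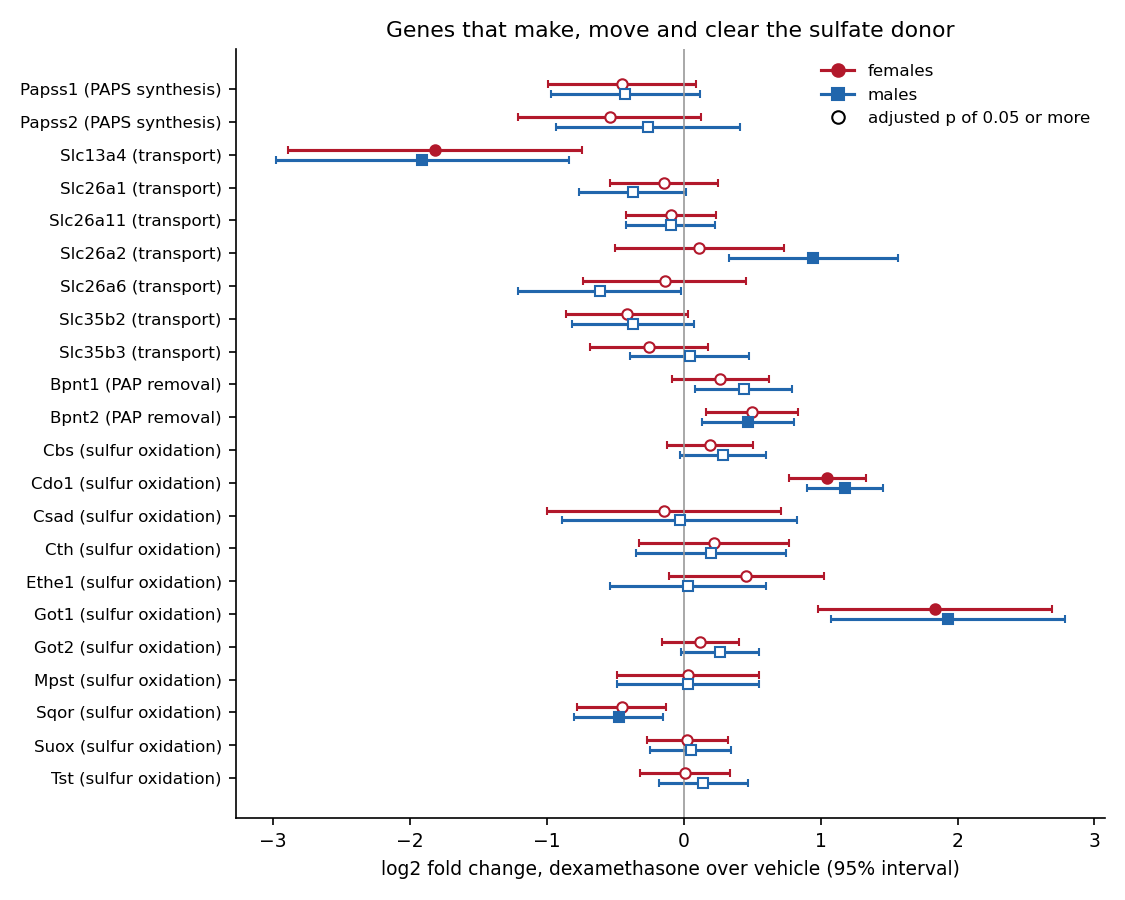
Effect of dexamethasone as the log2 fold change over vehicle (horizontal axis) in females (circles) and males (squares) for genes that make, move and clear the sulfate donor PAPS, with 95% intervals from limma. Filled symbols passed an adjusted p of 0.05. Cdo1 and Got1 are above 0 and Slc13a4 below 0 in both sexes, and the intervals of Papss1 and Papss2 span 0.

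Sulfatases, which take sulfate off again, had 2 higher and 0 lower of 14 tested in females and 1 higher and 1 lower in males. These were 14.3% higher in females, and 7.14% each way in males, under the shares of all genes there (10.4% and 12.1%). The lysosomal sulfatase gene Arsg rose in both, by 0.86 ± 0.20 in females (adjusted p = 0.0182) and 0.90 ± 0.20 in males (adjusted p = 0.00914). The steroid sulfatase gene Sts had no call (0.03 in females and 0.15 in males). The membrane-bound sulfotransferases of the Golgi, a separate family that sulfates proteins, lipids and glycans, had 3 higher and 5 lower of 20 in females and 3 higher and 7 lower in males. The lower ones were 25% in females and 35% in males, beside 6.88% and 12.1% of all genes, and the higher ones 15% in each sex, beside 6.79% and 10.4%. Among them Gal3st1, for sulfatide lipids, fell by 1.52 ± 0.29 in females (adjusted p = 0.00770) and by 1.99 ± 0.29 in males (adjusted p = 0.00124), and Chst7 fell by 1.04 and 1.50. Chst15 (1.03 and 1.22) and the tyrosylprotein sulfotransferase gene Tpst2 (1.16 and 0.73) rose in females and males.

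The glucuronosyltransferases, the other large conjugating family of liver, had 0 of 11 called in females and 1 lower in males, Ugt1a1, for bilirubin, at −1.14 ± 0.33 (adjusted p = 0.0317). That is 9.09% of the list, near the 12.1% of all genes. In the list of estrogen and steroid handling 1 rose and 1 fell of 17 in females, and 2 rose and 1 fell in males. These shares (5.88% each way in females, 11.8% higher and 5.88% lower in males) were near or below those of all genes. Cyp1b1, an estrogen hydroxylase gene, rose by 0.75 ± 0.14 in females (adjusted p = 0.00754) and 1.20 ± 0.14 in males (adjusted p = 0.000467). The estrogen receptor gene Esr1 did not pass (0.48 and 1.13, adjusted p = 0.637 and 0.177).

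Transcription factors described in the field as regulators of sulfotransferase genes had 3 higher and 3 lower of 23 in females and 5 higher and 6 lower in males. The shares were 13% each way in females, beside 6.79% and 6.88% of all genes, and 21.7% higher and 26.1% lower in males, beside 10.4% and 12.1%. Foxo1 rose by 1.49 ± 0.21 in females (adjusted p = 0.00173) and 1.10 ± 0.21 in males (adjusted p = 0.00420). The nuclear receptor genes Nr1i3 (−0.82 and −1.30) and Ppara (−0.83 and −1.25) fell in females and males. The glucocorticoid receptor gene Nr3c1 did not pass (−0.11 and −0.25), nor did Stat5a (0.14 and −0.37), while Stat5b fell in males alone by the threshold (−0.55, adjusted p = 0.0477), with no call for the difference of the effects (adjusted p = 1.00). Sts, Esr1, Nr3c1, Stat5a and Stat5b were named after their values were seen. The list counts are descriptions, and no list was tested as a set.

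Genes whose levels ran most like each sulfotransferase over the 12 arrays were found by the smallest root-mean-square difference after centring each gene on its own mean. For Sult1e1, which itself varied by 4.11 around its mean on that measure, they were Serpina5 (1.08), Cdkn1a (1.23) and E230001N04Rik (1.36). For Sult1d1, which varied by 1.41, they were Morc4 (0.46), Smox (0.47) and Aass (0.51). For Sult1c2, which varied by 1.13, they were Serpina6 (0.29), which encodes corticosteroid-binding globulin, Rtn4 (0.33) and Cenpm (0.33). Serpina6 had an effect of −1.21 in females and −1.75 in males, beside −1.03 and −1.65 for Sult1c2. Nearness of these effects follows from the choice of Serpina6 by closeness over the same 12 arrays.

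For Sult3a1, which varied by 4.81, genes among the closest were A1bg (2.26) and Tsix (2.40). For Sult2a2, which varied by 6.26, they were the X-inactivation transcript Xist (0.94), A1bg (1.55) and Hao2 (2.31). The closest to Sult1a1 were Gypc (0.29), Urad (0.31) and Rdh9 (0.37), around a spread of 0.63. The closest to Sult1b1 were Hnrnpdl, Gsta4 and 1110051M20Rik (0.14 to 0.16, around 0.32), and to Sult5a1 Gsx2, Glra2 and Lrrc17 (0.33 to 0.42, around 0.67). These likenesses rest on 12 arrays that share the same groups and slides, and for Sult2a2 and Sult3a1 on some male arrays below background.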

How the data were processed

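Single-colour intensities of 12 liver arrays, 1 animal each, came from Agilent Feature Extraction 9.5, run by the authors per the submitters' processing notes. The deposited processed signal had been detrended over the array surface, per the file headers. Signals were taken to log2 and scaled to each array's 75th percentile. Spots of a probe were averaged, outlier spots left out, and 28842 probes kept that were well above background on all 3 arrays of a group. Names were updated through RefSeq (GRCm38.p6), and the brightest probe stood for each of 19336 genes. limma 3.58.1 (R 4.3.3) fitted 4 group means to all arrays. P-values were adjusted over all genes, with a threshold of 0.05. The fit was tested on simulated data. Named genes were all 8 members, Papss1 and Papss2, and per list up to 4 genes with the largest change among those past the threshold in both sexes, or otherwise in 1. A few genes that this rule selects are not reported here. Members and lists were chosen with earlier results of these data known. Alternatives covered background correction, scaling, probe filters, probe choice, slide, replicate block, spread and each array left out. All male vehicle arrays sat at slide position 1, so position and group cannot be told apart. After each gene's group mean was taken off, same-numbered arrays of different groups correlated at −0.22 to 0.33 and did not pair. Figures used matplotlib 3.10.9.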

Additional observations from a re-analysis of the deposited data

How the results depend on the processing

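Calls for Sult1e1, Sult1d1 and Sult2a2 kept direction and threshold under every alternative run that could measure them, except Sult1d1 between the sexes after vehicle with normexp. Counts of genes called moved more, and the cause was not tested where no construction shows it. Array weights gave 4037 in females, 2348 between the sexes after dexamethasone, 738 after vehicle and 3 for the difference of effects. Normexp, which moved the median of all genes by 0.24 to 0.26 for dexamethasone, gave 538 in females, 904 in males, 59 and 90 between the sexes after dexamethasone and after vehicle, and 0 for the difference of effects. Its calls were 44.1% and 51.1% higher in females, against 56.4% and 33.2% in the main analysis. With only the 2 groups compared in the fit, 1180 genes passed in females, 488 between the sexes after dexamethasone and 212 after vehicle. Without a filter on dim probes 4230 passed between the sexes after dexamethasone, 22.5% of them higher in females, and 2271 for the difference of effects. The mean of a gene's probes and probes above background on all arrays each left 0 for the difference by limma, and the all-array filter left 1 member higher in females under each treatment, since Sult2a2 and Sult3a1 were not tested. Slide as a block left 243 between the sexes after dexamethasone, against 1123 in the main analysis, and lost the Sult1c2 call there. The replicate block left 702 between the sexes after dexamethasone and 241 after vehicle, 1984 in females and 3568 in males. It changed no call of a sulfotransferase. The numbers share no known source. Members lower after dexamethasone than after vehicle in females were 2 with array weights. They were 1 with an intensity trend, the all-array filter, quantile normalization or slide as a block. Members higher in females than in males after vehicle were 5 with an intensity trend.

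Leaving out 1 array at a time gave 1504 to 2568 genes in females, 2343 to 5027 in males, 1 to 32 for the difference of effects, 453 to 1280 between the sexes after dexamethasone and 154 to 435 after vehicle. Members higher after dexamethasone than after vehicle were 2 to 3 in females and 3 to 4 in males, and members lower in that comparison in females were 0 to 2. Members higher in females than in males after vehicle were 3 to 4. Signs turned only for effects that were not called. With normexp these were Sult1a1 in females (−0.11), Sult2a2 in males (0.98) and for the difference of effects (−0.66), and Sult1e1 between the sexes after vehicle (−0.0290). With the mean of probes they were Sult2a2 in males (0.0423) and Sult1b1 between the sexes after dexamethasone (0.0643), and for Sult1b1 in males median scaling gave 0.0190 and the slide block 0.0581. Leaving out 1 array turned Sult2a2 (−0.10 to 1.09) and Sult5a1 (−0.27 to 0.67) in females, Sult1b1 in males (−0.23 to 0.0807), Sult1e1 for the difference of effects (−0.0862 to 1.00) and between the sexes after vehicle (−0.38 to 0.70), and Sult1b1 (−0.38 to 0.0649) and Sult5a1 (−0.43 to 0.0923) between the sexes after dexamethasone. The number of arrays, 3 per group, and signals near background in males for Sult2a2 and Sult3a1 limit the precision. The male Sult2a2 values, and the differences of effects built on them, rest on arrays below background, so their signs carry no information.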
